A study of Sus scrofa with 12 samples.

Results

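In 41 genes of pig muscle, the 12 pigs studied fell on 2 sides of a wide gap in expression level. They were chosen by the counts themselves. Counts were scaled to a common library size by the pig's total (CPM), taken as log2(CPM + 0.1) and sorted over the 12 pigs, and the widest gap between neighbouring values had to be at least 2 on that log2 scale, with at least 3 pigs on each side and a highest level of at least 1 CPM. Of 25880 genes listed, 20341 had at least 1 count and 11916 reached 1 CPM in some pig, and 52 of these (0.436%) met the gap rule. Set aside were 9 genes that divided the pigs as the Y-linked gene EIF1AY did, itself included, and 2 that belong to other gene families, the mitochondrial ATP8 and the antigen presentation regulator CIITA. The gap and the side on which a pig lies were thus fixed by the choice of genes and are given here as description, while the IMF group of a pig was not used by it.

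The samples were Semimembranosus muscle, a large muscle of the ham, from 12 unrelated purebred Italian Large White pigs of 229 to 249 days, 6 with high and 6 with low intramuscular fat (IMF), all kept in the same environment and on the same diet. Pigs 1 to 6 formed the high IMF group and pigs 7 to 12 the low IMF group, and each group held 3 females and 3 males by its labels, the males castrated by the study's description. Polyadenylated RNA was sequenced from 1 stranded library a pig, and reads were counted per Ensembl gene. The sex labels do not hold in the counts: pigs 3, 9 and 10, labelled female, had the Y-linked level of EIF1AY, and pigs 5, 7 and 8, labelled male, were at its lower level, which makes 6 pigs, 2 with high IMF and 4 with low IMF. Whether samples were exchanged was not tested, and an exchange would also make the IMF group of these pigs uncertain. Results on IMF are also given for the 6 pigs whose Y chromosome counts match the label, 4 of high and 2 of low IMF. Labels unrelated to the counts would match in about as many pigs, so a match does not secure the identity of a pig.

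Total counts ran from 131048805 to 178013997 a pig, with a median of 144352007. A count of 0 at these depths allows a level of up to 0.0169 to 0.0229 CPM, the value of 3 counts, and this limit covers counting error only. It takes each count as an independent read. That is uncertain here, because each pig's total exceeds the input reads that the study gives. All 4 of the muscle fibre markers that carried a name, of 12 looked for, were above 1 CPM in every pig, and summed to between 28650 and 47407 CPM. Adipocyte markers summed to 434 to 554 CPM in the high and to 227 to 817 CPM in the low IMF group. In whole muscle, fewer cells of a type and less RNA per cell cannot be told apart.

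Within a breed, the transcript level of a gene is usually spread over 1 continuous range, because many regulatory differences of small effect and the animal's state add up. Separate levels are known from genes on the Y chromosome, from genes that part of a population carries in deleted, duplicated or differently regulated form, from mitochondrial lineages, and from near-identical copies among which an aligner divides the reads. Which of these applies to a gene of the present set was not tested, since no genotypes were analysed here.

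ATP8, a subunit of the mitochondrial ATP synthase, was among the genes set aside, yet among the genes that met the gap rule it is the only one with a symbol that divided the pigs as the largest group of the 41 genes did. Its sequence is shown because its end is shared with the next gene, so reads from there cannot be ascribed to either without a rule. In RefSeq (Sscrofa11.1) it lies at chrMT:8959-9162 on the plus strand, 204 bases long, and the 43 bases in capitals, from 9120 to 9162, are also the start of ATP6.

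ATP8: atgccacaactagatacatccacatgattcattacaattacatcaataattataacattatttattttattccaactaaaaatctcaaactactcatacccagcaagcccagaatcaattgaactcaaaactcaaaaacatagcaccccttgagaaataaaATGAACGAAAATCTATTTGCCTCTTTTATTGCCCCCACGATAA

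Among the 41 genes, 17 had a name and 24 (58.5%) only an Ensembl identifier, against 13.4% of the 11916 genes that reached 1 CPM. A position in RefSeq was found by symbol for 12. These lay on 7 chromosomes, with 4 on chromosome 2, 2 each on chromosomes 8 and 16, and 1 each on chromosomes 1, 9, 14 and 17. Small RNAs of Rfam families, which guide or take part in the processing of other RNAs, gave 2 members of 28 that reached 1 CPM, and C2H2 and other zinc finger proteins, mostly transcription factors, gave 2 of 229. Levels were modest. The highest CPM of a member had a median of 6.89, against 12.9 over all genes that reached 1 CPM, and it was under 5 CPM in 19 members and at least 50 CPM in 7. Together the members took 0.0219 to 0.0641% of a pig's counts.

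The widest gap had a median of 3.21 on the log2 scale over the members and of 0.304 over all genes that reached 1 CPM, a difference that the choice of members imposes. It was at least 5 in 7 members and under 2.5 in 12. Just inside the threshold lay ENSSSCG00000024402 with a gap of 2.01, the matricellular protein gene THBS2 with 2.06 and VMAC with 2.07, and just outside it ALB with 1.95, ENSSSCG00000032301 with 1.92 and APOH with 1.89. The lower level was an absence of counts in part of the members. In 10 of them every pig of the lower side had 0 counts, in 18 at least 1 such pig had 0, and in 23 none had. In RF01848 the pigs fell into more than 2 levels, since 3 of its gaps were at least 2 on the log2 scale, and in the other 40 members only the widest was. The upper level was narrow, within 2-fold from the lowest to the highest pig, in 17 members, and the median of this ratio was 2.15. The upper side held 3 pigs in 11 members, 4 in 6, 5 in 4, 6 in 6, 7 in 5, 8 in 3 and 9 in 6.

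**Figure D1:**
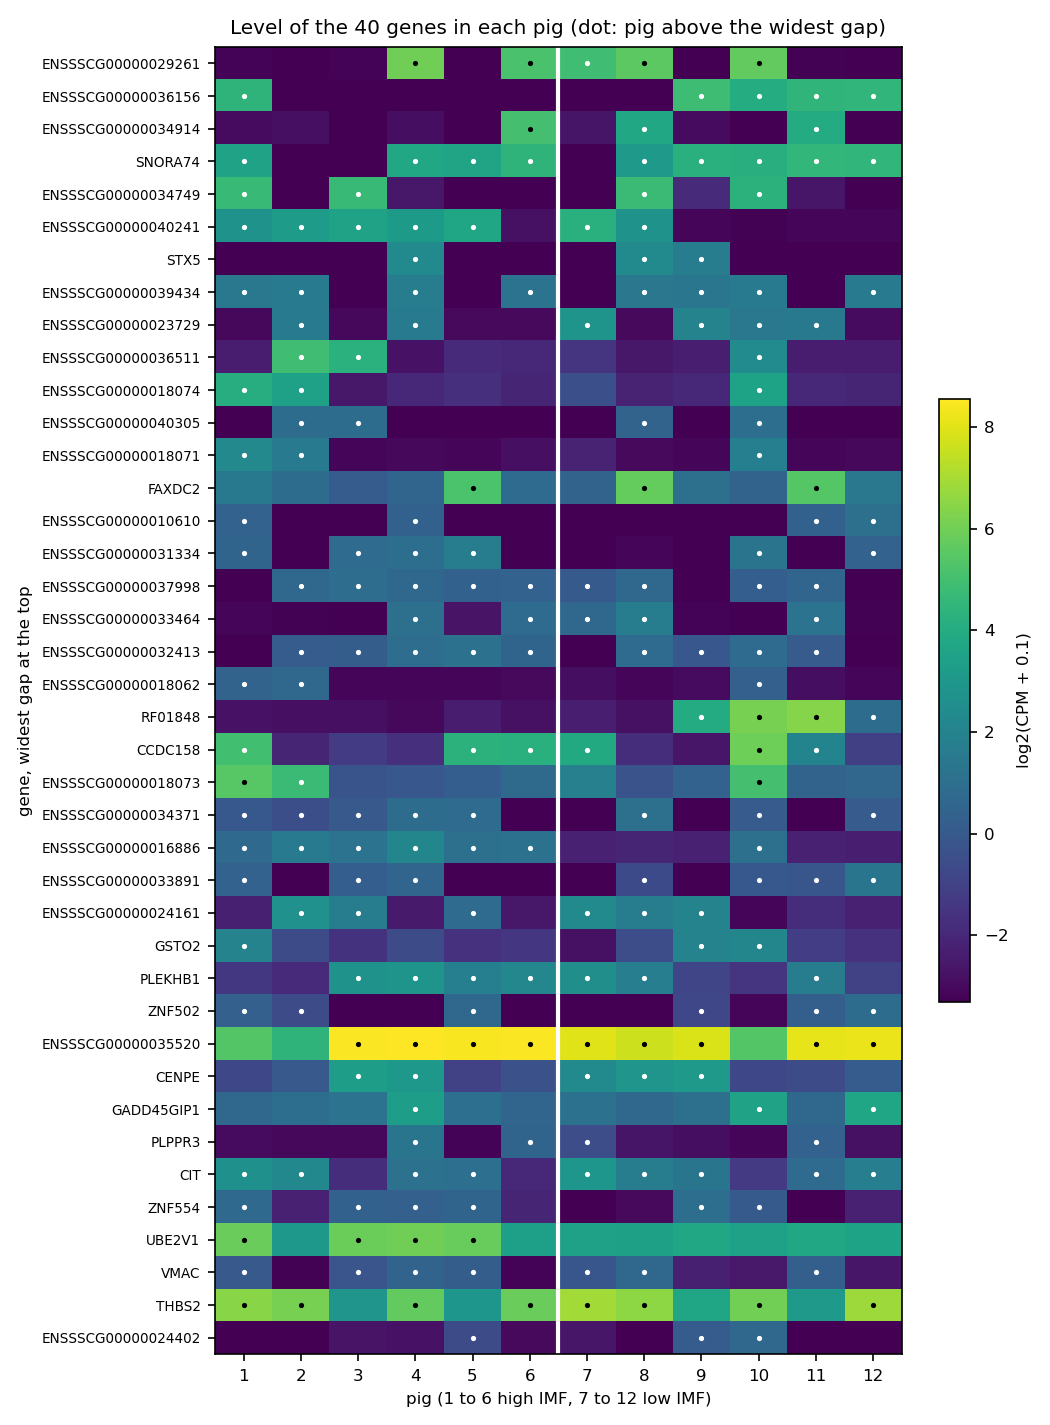
Colour gives log2(CPM + 0.1) of 40 of the 41 genes (rows, widest gap at the top) in each of the 12 pigs (columns, 6 high IMF to the left and 6 low IMF to the right of the white line). A dot marks the pigs above the widest gap, and every row but those of RF01848 and UBE2V1 has dots on both sides of the line.

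The widest gaps belonged to genes that were fully present in some pigs and at or near 0 in the rest. ENSSSCG00000029261 had a gap of 8.14. It stood at 63.6, 35.1, 30.1, 46.5 and 52.1 CPM in pigs 4, 6, 7, 8 and 10 and at no more than 0.00684 CPM, which is 1 count, in the other 7. Both IMF groups hold pigs of either level. ENSSSCG00000036156 had 21.2, 28.9, 16.3, 21.9 and 22.3 CPM in pigs 1, 9, 10, 11 and 12 and 0 counts in the other 7 pigs, and so was at least 714-fold higher in the lowest of the 5 than the limit of a count of 0. Its upper pigs were 4 with low IMF and 1 with high IMF. ENSSSCG00000034914 (gap 6.40) had 13.4 to 33.2 CPM in pigs 6, 8 and 11 and no more than 0.0597 CPM in the other 9.

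SNORA74, a small nucleolar RNA that guides the chemical modification of ribosomal RNA, was the opposite case, with counts in most pigs and none in a few. The libraries were of polyadenylated RNA, and whether the counts of SNORA74 or RF01848 come from the mature small RNA was not tested. It had 0 counts in pigs 2, 3 and 7 and between 8.34 and 23.2 CPM in the other 9, at least 372.5-fold above the limit of a count of 0. In the high IMF group it had a lowest level of 0, a median of 11.8 and a highest level of 21.1 CPM, and in the low IMF group 0, 18.0 and 23.2 CPM. The ranges of the groups therefore covered each other almost wholly.

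Of the other members with a gap of at least 5, ENSSSCG00000034749 had 26.4, 25.5, 27.4 and 19.8 CPM in pigs 1, 3, 8 and 10, of which 2 are high and 2 low IMF, and at most 0.163 CPM elsewhere. ENSSSCG00000040241 stood between 6.55 and 18.6 CPM in pigs 1 to 5, 7 and 8 and at most at 0.0458 CPM in pigs 6 and 9 to 12. Here 5 of 7 upper pigs were of high IMF. STX5, a SNARE protein of the Golgi that serves transport from the endoplasmic reticulum (chromosome 2, 8937705 to 8968513), had 4.85, 4.98 and 3.11 CPM in pigs 4, 8 and 9. Its counts were 0 in the other 9 pigs, which puts the 3 pigs at least 136-fold higher.

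The next widest gaps came from genes with and without counts on the lower side. ENSSSCG00000039434 had 0 counts in pigs 3, 5, 7 and 11 and a narrow upper level of 2.24 to 3.14 CPM in the other 8. ENSSSCG00000023729 had 2.57 to 7.03 CPM in pigs 2, 4, 7, 9, 10 and 11 and 0.0203 to 0.0263 CPM in the rest. The latter range is that of 3 to 4 counts a pig, so that the lower level is close to none. ENSSSCG00000036511 was at 29.9, 18.9 and 5.25 CPM in pigs 2, 3 and 10 and at most at 0.254 CPM in the rest. ENSSSCG00000040305 was at 1.72, 1.73, 1.30 and 1.88 CPM in pigs 2, 3, 8 and 10 and at 0 in the rest. These last genes, both without a name, share 3 of their upper pigs.

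The members without a name that are not described singly had gaps of 2.01 to 3.69. ENSSSCG00000010610, ENSSSCG00000031334, ENSSSCG00000037998, ENSSSCG00000032413, ENSSSCG00000034371, ENSSSCG00000033891 and ENSSSCG00000024402 had highest levels of 1.48 to 3.03 CPM and at most 0.0672 CPM on the lower side. ENSSSCG00000033464 had 1.44 to 3.10 CPM in pigs 4, 6, 7, 8 and 11 and at most 0.0529 CPM in the others. ENSSSCG00000024161 had 1.69 to 6.40 CPM in pigs 2, 3, 5, 7, 8 and 9 and at most 0.196 CPM in the others.

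Named genes of metabolism included members whose lower level was plainly above 0. FAXDC2, of the fatty acid hydroxylase family of sterol enzymes (chromosome 16, 68359243 to 68389968), had 36.4, 53.7 and 43.3 CPM in pigs 5, 8 and 11, and between 0.999 and 2.72 CPM in the other 9. The lowest upper pig was thus 13.4-fold above the highest lower pig. GSTO2, a glutathione transferase of the omega class that also reduces dehydroascorbate, had 3.87, 3.90 and 4.33 CPM in pigs 1, 9 and 10 and 0.0448 to 0.595 CPM in the others. Its upper pigs agree closely while its lower pigs spread widely.

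PLEKHB1, a membrane-associated protein with a pleckstrin homology domain (chromosome 9, 8103497 to 8117819), had 3.10 to 6.89 CPM in pigs 3 to 8 and 11 and 0.174 to 0.461 CPM in the other 5. Its division differs from the labelled sex in 1 pig, as does that of ENSSSCG00000033464. The share of all genes this near to the labelled sex was not worked out. No member had the division of labelled sex itself, which only the 6 members with 6 pigs on each side could have had. Since the label goes against the Y chromosome counts in 6 pigs, the measured Y-linked division was set beside it. No member came within 2 pigs of the Y-linked division, but genes with exactly that division had been set aside. The 17 members with 3 pigs on 1 side could not come within 2 pigs of it either. PLPPR3, related to the lipid phosphate phosphatases and best known from neurons (chromosome 2, 77538925 to 77552046), had 2.38, 1.30, 0.605 and 1.24 CPM in pigs 4, 6, 7 and 11 and at most 0.0580 CPM in the rest.

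Genes of cell division and of the matrix were also among the members. CENPE, the kinesin of the kinetochore (chromosome 8, 117888968 to 117965325), had 10.1, 7.98, 4.94, 7.26 and 8.31 CPM in pigs 3, 4, 7, 8 and 9 and 0.416 to 0.987 CPM elsewhere. CIT, the citron kinase of cytokinesis (chromosome 14, 33009828 to 33195985), had 0.192, 0.160 and 0.303 CPM in pigs 3, 6 and 10 and 1.66 to 7.36 CPM in the other 9. The divisions of these genes of mitosis differ from each other. THBS2, thrombospondin 2 of the extracellular matrix (chromosome 1, 854473 to 882467), stood at 52.9 to 119 CPM in 8 pigs and at 7.21, 7.47, 12.6 and 8.28 CPM in pigs 3, 5, 9 and 11. It was among the most abundant of the members at its lower level, with 4 upper pigs in each IMF group.

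The remaining named members were a mitochondrial ribosome protein, zinc finger genes and coiled-coil proteins. GADD45GIP1, of the mitochondrial ribosome (chromosome 2, 66087421 to 66089578), had 10.2, 11.6 and 12.4 CPM in pigs 4, 10 and 12 and 1.37 to 2.20 CPM in the other 9. Both of its levels were narrow. ZNF502 had 0.475 to 1.73 CPM in pigs 1, 2, 5, 9, 11 and 12 and at most 0.0169 CPM in the rest, and ZNF554 (chromosome 2, 75834873 to 75857601) had 0.932 to 1.88 CPM in pigs 1, 3, 4, 5, 9 and 10 and at most 0.137 CPM in the rest. CCDC158, a coiled-coil protein (chromosome 8, 71990113 to 72088966), had the widest upper level among these, with 31.1, 19.9, 18.6, 14.8, 60.4 and 3.97 CPM in pigs 1, 5, 6, 7, 10 and 11, and at most 0.375 CPM in the rest. VMAC, a coiled-coil protein that associates with the intermediate filament protein vimentin, had 0.767 to 1.51 CPM in pigs 1, 3, 4, 5, 7, 8 and 11 and at most 0.106 CPM in the rest.

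**Figure D2:**
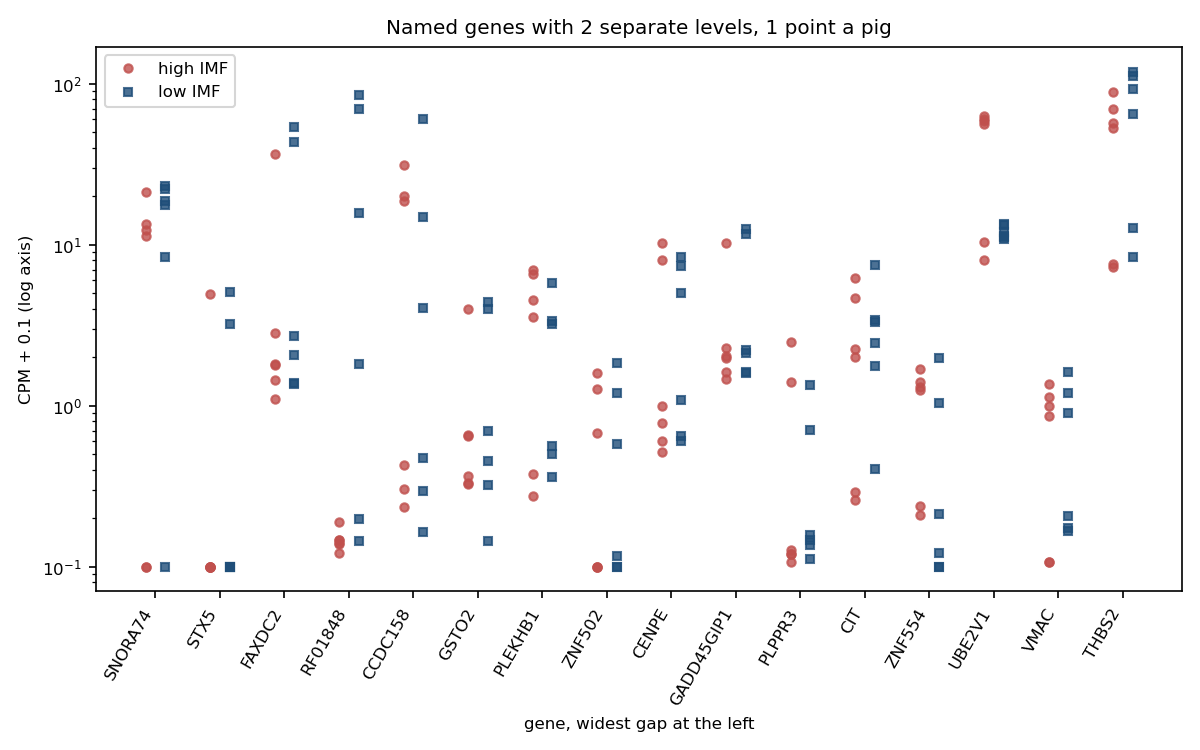
Each point is 1 pig, with the CPM + 0.1 of 16 of the 17 named genes on a log axis, circles for high and squares for low IMF. STX5, ZNF502, ZNF554 and SNORA74 have pigs at the bottom of the axis, where the count is 0, while THBS2 and UBE2V1 have a lower level of 7.21 CPM or more.

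Next, the divisions were set against each other. The 41 members gave 37 different divisions of the 12 pigs, where a division counts as the same whichever side is the upper one. A single division was shared, by 5 members, and each of the other 36 members had one of its own. Over the 820 pairs of members, 10 had the same division, all from the shared one, 5 differed in 1 pig, 43 in 2, 72 in 3, 196 in 4, 313 in 5 and 181 in 6, the most that is possible. The same division was thus found in 1.22% of the pairs and a division 1 pig apart in 0.61%, beside 0.379% and 1.68% of the pairs among all 3366 genes that reached 1 CPM with at least 3 pigs on each side of their widest gap, however narrow. Pairs that differed in 4 to 6 pigs made up 84.1% and 79.3%. All these shares are descriptions, since pairs share genes and pigs, and the number of pigs on each side limits how near 2 divisions can be.

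The shared division set pigs 1, 2 and 10 apart from the other 9, that is, 2 pigs of high and 1 of low IMF. Of the 3366 genes, 10 had it: the 5 members, ATP8, ENSSSCG00000018072 with a gap of 1.88, and 3 genes with gaps of at most 0.26. ENSSSCG00000018073 had 43.8, 27.7 and 33.0 CPM in pigs 1, 2 and 10 and 0.725 to 3.48 CPM in the others, with a median of 1.25. ENSSSCG00000018074 had 16.9, 11.0 and 11.6 CPM in these pigs and 0.0684 to 0.657 CPM in the others. Pig 7 was the highest of the lower pigs in both. ENSSSCG00000018071 had 4.79, 2.87 and 3.43 CPM against 0.0137 to 0.127 CPM, and ENSSSCG00000018062 had 1.30, 1.53 and 1.17 CPM against 0.0132 to 0.0373 CPM. The fifth gene ran the other way. ENSSSCG00000035520 was at 41.6, 20.9 and 42.1 CPM in pigs 1, 2 and 10 and at 203 to 377 CPM, with a median of 298, in the other 9.

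ATP8 had the same division and the direction of the 4 genes that were higher, with 456, 367 and 478 CPM in pigs 1, 2 and 10 and 38.1 to 73.9 CPM in the other 9. Its level and that of ENSSSCG00000035520 lay on opposite sides of their gaps, while within a side they did not run opposite: pig 8 was the lowest of the 9 and pig 2 the lowest of the 3 in both genes. Over the 12 pigs ATP8 ranged 12.5-fold and ENSSSCG00000035520 ranged 18.1-fold, but their sum ranged 2.16-fold, from 241 CPM in pig 8 to 520 CPM in pig 10. The identity of ENSSSCG00000035520 was not known here, and whether reads are divided between it and ATP8 was not tested.

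Of the 13 named protein genes of the mitochondrial genome, which encode subunits of the respiratory chain and ATP synthase, only ATP8 had this division. By number, the identifiers ENSSSCG00000018071 to ENSSSCG00000018074 lie between those of ND2 (ENSSSCG00000018069) and COX1 (ENSSSCG00000018075). ENSSSCG00000018062 comes shortly before ND1 (ENSSSCG00000018065). Whether these genes without a name are also mitochondrial was not determined here. In ND1 pigs 1, 2 and 10 were also all above the others, with 1606, 1054 and 1660 CPM against 376 to 694 CPM, and in ND2 with 779, 787 and 766 CPM against 325 to 688 CPM. The gaps between neighbouring pigs stayed small in both, with a widest one of 0.61 in ND1 and 0.33 in ND2. In the other 10, among them COX1 and CYTB, the 3 pigs overlapped with the rest. ATP6, which overlaps ATP8 in the 43 bases shown above, was at 861, 740 and 1007 CPM in pigs 1, 2 and 10 and at 714 to 1412 CPM in the others.

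**Figure D3:**
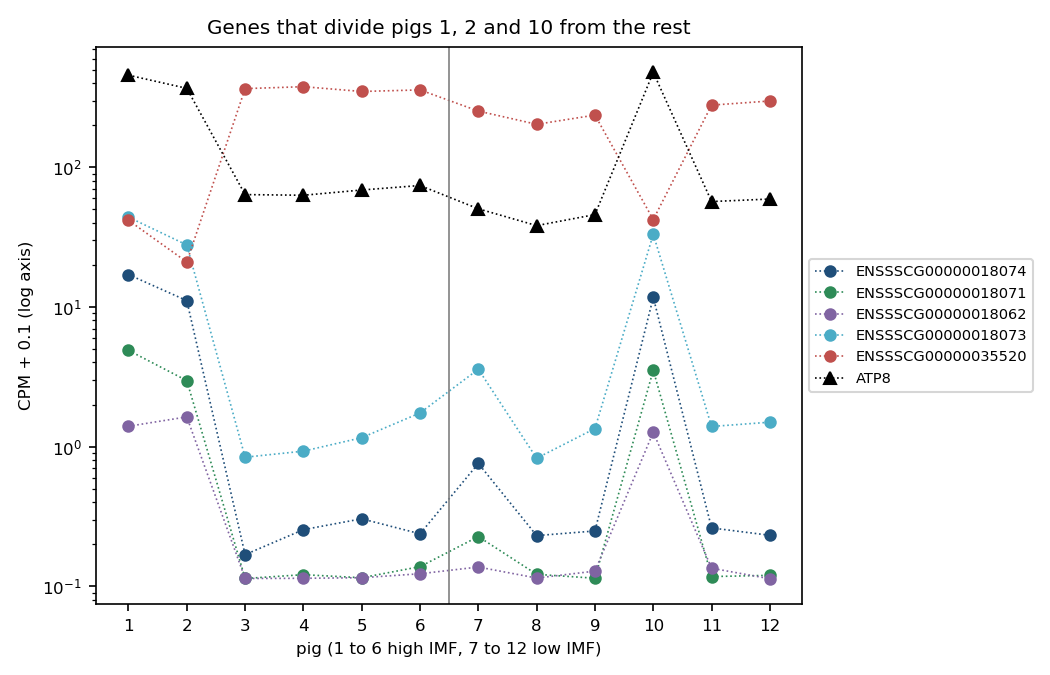
CPM + 0.1 on a log axis in each of the 12 pigs, for the 5 members with the shared division (circles) and for ATP8 (triangles), with a grey line between the 6 high and the 6 low IMF pigs. Dotted lines only join the points of a gene. ATP8 and 4 members peak in pigs 1, 2 and 10, where ENSSSCG00000035520 drops to between 20.9 and 42.1 CPM.

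A further 5 pairs differed in 1 pig. The upper pigs of RF01848, which the study names after its Rfam family, were 9 to 12, and ENSSSCG00000036156 added pig 1 to these. ENSSSCG00000040241 was low in pigs 9 to 12 and in pig 6, so that it was the reverse of RF01848 but for pig 6. ENSSSCG00000036511 and ENSSSCG00000040305 differed in pig 8, as did ENSSSCG00000033464 and PLPPR3. ZNF502 was the reverse of ENSSSCG00000029261 but for pig 3. None of these genes without a name could be placed on a chromosome, so that their distance from each other is not known here, and no members that have a position shared a division.

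The divisions were also not shared by named neighbours. Within 500 kb of the 12 members with a RefSeq position lay 132 genes with a symbol that reached 1 CPM, between 3 and 27 a member. The 1596 genes at 1 CPM without a name (13.4%) had no position here and could not be looked at. None of the 132 neighbours had the division of its member or came within 1 pig of it. A gap of at least 1 on the log2 scale occurred in 5 of these neighbours, and 1 had a gap of at least 2. This was SPATA2, whose product binds the deubiquitinase CYLD, 129333 bases from UBE2V1, with a gap of 2.85. It stood at 1.55 CPM in pig 5 and at 11.8 to 20.6 CPM in all other pigs, so that only 1 pig lay on its lower side. SPATA2 was singled out after its values were seen.

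Each pig was on the upper side in some members and on the lower side in others. The number of members at the upper level was 23, 18, 18, 24, 19 and 14 in pigs 1 to 6 and 14, 22, 16, 26, 19 and 13 in pigs 7 to 12. The high IMF pigs averaged 19.3 ± 3.67 members (SD, n = 6) and the low IMF pigs 18.3 ± 5.01 members (SD, n = 6), which differ by less than the spread between pigs. Members with 0 counts numbered from 3 in pig 4 to 13 in pig 7.

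Finally, the divisions were set against the IMF group, the comparison the study was made for. None of the 41 divisions was that of the IMF groups, 1 differed from it in 1 pig, 2 in 2 pigs, 2 in 3, 4 in 4, 23 in 5 and 9 in 6. Among the 3366 genes with at least 3 pigs on each side of the widest gap, 0.624% came within 1 pig of the IMF groups. At most 2 pigs apart were 3 members (7.32%) and 4.16% of those genes, 5 or 6 pigs apart were 32 members (78.0%) and 61.9%, and the median was 5 pigs in both. The number of pigs on each side limits these distances. The 17 members with 3 pigs on 1 side could only be 3 or 5 pigs apart. Only the 6 members with 6 pigs on each side could have had the division of the IMF groups. The 3366 genes were not matched for this, so the shares are descriptions. The 3 members at most 2 pigs apart were ENSSSCG00000016886, RF01848 and UBE2V1.

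**Figure D4:**
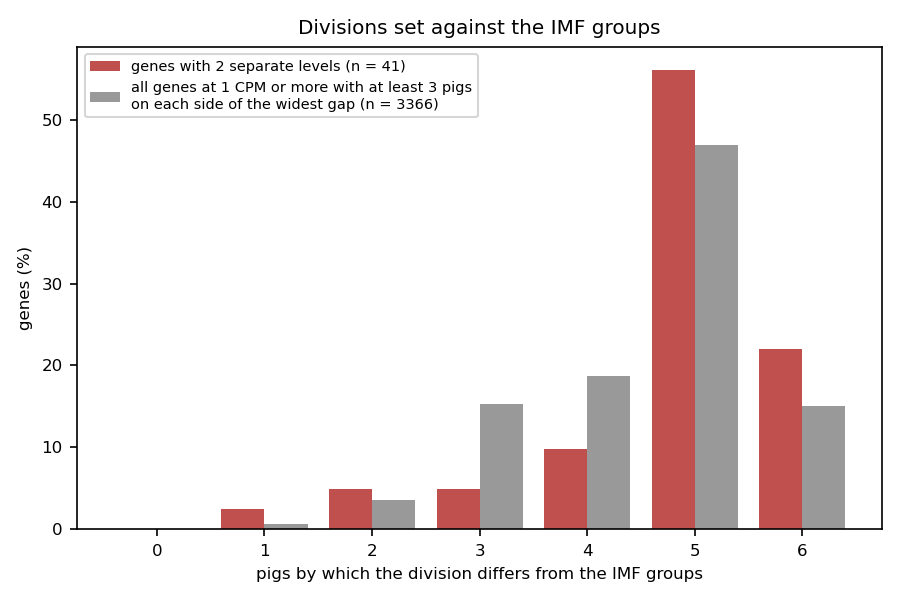
Bars give the percentage of genes (vertical axis) by the number of pigs in which their division differs from the IMF groups (horizontal axis, 0 for the same division and 6 for the farthest), red for the 41 members and grey for the 3366 genes with at least 3 pigs on each side. Both peak at 5 pigs, and none of the 41 members is at 0, which only the 6 members with 6 pigs on each side could reach.

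The IMF groups were then compared by a test across all genes. Of the 41 members, 30 passed edgeR's filter on low counts and 11 did not. Of the 30, 0 had an adjusted p at or under 0.05 with a log2 fold change of at least 0.58 in size by edgeR's quasi-likelihood test, as did 0 of all 14262 genes (0.00%). Before adjustment 3 members (10.0%) had a p at or under 0.05, beside 10.4% of all genes. DESeq2's Wald test, the tool the study used, gave all 41 members an adjusted p. It called 2 of the 41, RF01848 and UBE2V1, beside 0.39% of the 16685 genes with an adjusted p. Of the 30 members, limma-voom called 0, with 2 at an unadjusted p at or under 0.05, beside calls in 0.00% of all genes. In 0 members were all pigs of 1 IMF group above all of the other, beside 0.386% of the 14262 genes. The median size of the log2 fold change was 0.63 over the 30 members and 0.17 over all genes, a larger size that the choice of genes with a wide gap brings with it, and 12 were higher in low and 18 in high IMF.

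ENSSSCG00000016886 had the division nearest to the IMF groups. In pigs 1 to 6, of high IMF, it was at 1.57, 2.92, 2.20, 4.27, 1.99 and 2.16 CPM, and in pigs 7 to 12, of low IMF, at 0.112, 0.138, 0.113, 1.99, 0.115 and 0.0987 CPM. All high IMF pigs and pig 10 were at the upper level, and the other 5 low IMF pigs were at the lower. The log2 fold change, low over high, was -2.45 (SE 0.79) with an adjusted p of 0.42 by edgeR, and an exact two-sided permutation test over all arrangements of 6 and 6 pigs gave a difference of -2.99 in the mean of log2(CPM + 0.1) at an unadjusted p = 0.00649. With a pseudocount of 1 that difference was -1.38. Without pig 10 the log2 fold change was -4.45 and edgeR's adjusted p was 3.24e-05. The gene was chosen for its gap, and pig 10 was the only pig whose side differed from its IMF group. Leaving it out therefore separates the groups by construction, and this p is no independent support for a difference. In the 6 pigs whose Y chromosome counts match the label, pig 10 not among them, the log2 fold change was -4.71 with an adjusted p of 0.60 by edgeR.

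RF01848 was at the lower level in all high IMF pigs, with 0.0473, 0.0387, 0.0411, 0.0210, 0.0907 and 0.0458 CPM in pigs 1 to 6. In the low IMF group it was at 0.0971, 0.0435, 15.8, 69.8, 85.7 and 1.72 CPM in pigs 7 to 12. The upper pigs were thus 4 of the 6 of low IMF and spread 49.9-fold among themselves, with pig 12 a log2 gap of 3.13 below the next. Pig 8 lay within the range of the high IMF group, and pig 7 lay just above its highest pig. Its log2 fold change was 9.28 (SE 1.77), the adjusted p was 0.19 by edgeR and 1.09e-09 by DESeq2's Wald test, and the exact permutation test gave a difference of 4.82 at an unadjusted p = 0.00866, and the difference was 2.98 with a pseudocount of 1. With the 6 matching pigs the log2 fold change was 10.15 and edgeR's adjusted p was 0.63.

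UBE2V1, the inactive partner of the ubiquitin-conjugating enzyme UBE2N (chromosome 17, 51630233 to 51664498), had 58.2, 59.9, 62.8 and 56.3 CPM in pigs 1, 3, 4 and 5, all of high IMF. Pigs 2 and 6 of the same group had 7.95 and 10.3 CPM, and pigs 7 to 12 had 11.0, 10.8, 13.2, 11.2, 13.3 and 12.0 CPM. Both levels were narrow, and the pigs lowest of all were 2 of high IMF. The log2 fold change was -1.82 (SE 0.45), with an adjusted p of 0.32 by edgeR and of 0.00573 by DESeq2's Wald test. By the exact permutation test the difference was -1.41 at an unadjusted p = 0.0606. With the 6 matching pigs the log2 fold change was -1.49 and the adjusted p was 0.998 by edgeR. These 3 genes were chosen for the smallest p of edgeR's test among the members, so the exact values are not independent of that choice, and the study listed RF01848 and UBE2V1 from the same pigs.

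**Figure D5:**
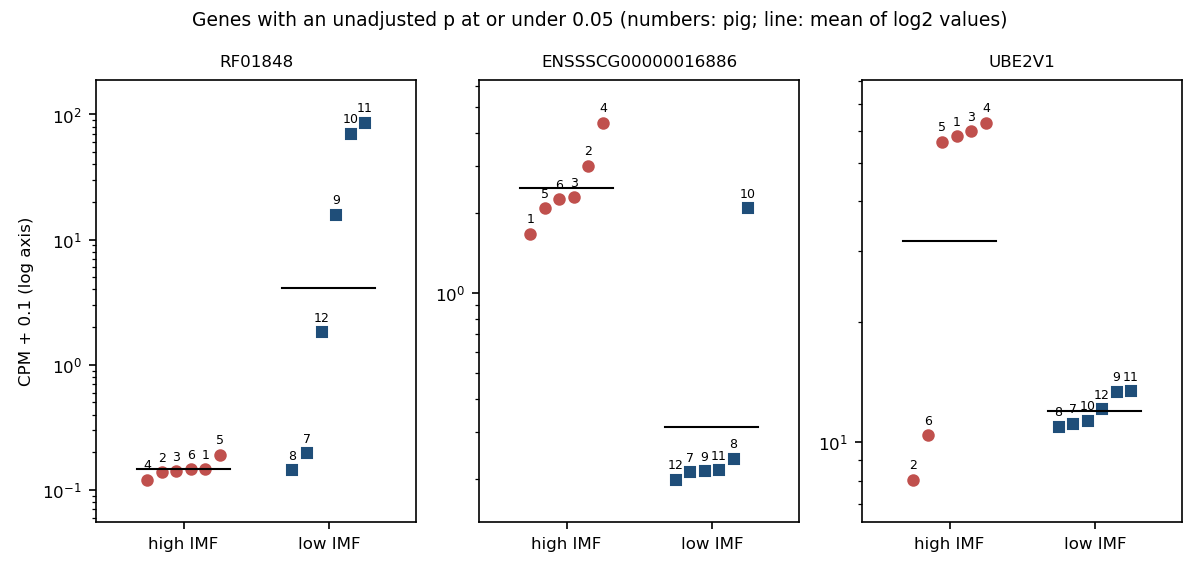
CPM + 0.1 on a log axis of RF01848, ENSSSCG00000016886 and UBE2V1 in 6 high IMF (circles) and 6 low IMF pigs (squares), with the number of each pig beside its point and a line at the mean of the log2 values. Pig 10 lies with the high IMF pigs in ENSSSCG00000016886, and pigs 2 and 6 lie with the low IMF pigs in UBE2V1.

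The other members with the smallest p by edgeR were far from the threshold. ENSSSCG00000036511 had a log2 fold change of -2.94 (SE 1.65, adjusted p 0.55) and ENSSSCG00000023729 of 1.66 (SE 1.39, adjusted p 0.70). GADD45GIP1 had 0.72 (SE 0.67, adjusted p 0.74) and FAXDC2 had 1.11 (SE 1.18, adjusted p 0.77), all by edgeR's quasi-likelihood test. Their levels in each pig, given above, put pigs of both IMF groups on both sides of the gap, and each log2 fold change was under 2 standard errors in size. The members of the shared division that could be tested differed no more. ENSSSCG00000018074 had a log2 fold change of -0.97 (SE 1.5), ENSSSCG00000018073 of -0.71 (SE 1.22) and ENSSSCG00000035520 of -0.23 (SE 0.63), each smaller than its error.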

How the data were processed

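The authors deposited counts per Ensembl gene, by the study's description made with Trimmomatic, HISAT2 on the pig genome 11.1, StringTie and HTSeq. Since each pig's total exceeds the input reads that the study gives, the step that produced these counts is uncertain. The annotation release, the strand option and the treatment of reads with several alignments are not given in the sources used here, so near-identical, overlapping and antisense genes are uncertain. CPM was calculated from column totals. Counts of all genes kept by filterByExpr were normalized by TMM and tested with edgeR 4.0.16 (quasi-likelihood, R 4.3.3), low over high IMF, with the group as the only term and Benjamini-Hochberg adjustment over 14262 genes. Standard errors were derived from the F statistic. DESeq2 1.42.0, limma 3.58.1, other filters and normalizations, labelled sex as a covariate and leaving out each pig were alternatives. Exact permutation tests used scipy 1.17.1. The gap rule and edgeR's test were tested on simulated counts.

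Members, lists and named genes were chosen with earlier results of these data known. Named are the 12 widest gaps, members at most 1 pig from the IMF groups, the 8 smallest p, the shared divisions, genes beside the threshold and, added to show the members, all those with a symbol. Same-division pairs close on 1 chromosome were part of the rule, and there were 0. The values of 1 member are not reported here, and it stays in the tests and counts over all members. Genes of other families were recognised by symbol alone. The columns map to pigs by number. The Y-linked check concerns single pigs, and with 1 library a pig p-values measure the spread between pigs. Slaughter days and lanes were not analysed here.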

Additional observations from a re-analysis of the deposited data

Results flagged for a closer look

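In 18 of the 80 combinations looked at of a member and an IMF group, 1 pig lay so far from the other 5 that its distance to the nearest of them exceeded Dixon's 95% critical share of the whole range, on the log2(CPM + 0.1) scale. Chance gives about 1 in 20 groups, but members were chosen for having 2 levels, so that such pigs are built into the choice. Pig 10 stood apart in 6, pig 1 in 4, pig 6 in 3, pigs 4 and 5 in 2 each and pig 7 in 1.

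Pig 10 was the only low IMF pig at the upper level of ENSSSCG00000036511 with 5.25 CPM, of ENSSSCG00000018074 with 11.6 CPM, of ENSSSCG00000018071 with 3.43 CPM, of ENSSSCG00000018062 with 1.17 CPM and of ENSSSCG00000016886 with 1.99 CPM, and the only one at the lower level of ENSSSCG00000035520 with 42.1 CPM. Of these 6 genes, 4 belong to the division shared with pigs 1 and 2. Pig 1 stood above the other high IMF pigs in ENSSSCG00000036156 with 21.2 CPM and in GSTO2 with 3.87 CPM, and below them in ENSSSCG00000037998 and ENSSSCG00000032413, both at 0 CPM.

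Pig 4 was above the other high IMF pigs in STX5 with 4.85 CPM and in GADD45GIP1 with 10.2 CPM. Pig 6 was above them in ENSSSCG00000034914 with 33.2 CPM and below them in ENSSSCG00000040241 with 0.0458 CPM and in ENSSSCG00000034371 with 0 CPM. Pig 5 was above them in FAXDC2 with 36.4 CPM and in ENSSSCG00000024402 with 0.575 CPM. Pig 7 was below the other low IMF pigs in SNORA74, with 0 CPM.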

How the results depend on the processing

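The number of members follows the rule's settings. It was 41 as reported, 19 with a pseudocount of 0.5, 14 with a pseudocount of 1, 22 with a gap of 3, 67 with a gap of 1.5, 62 with 2 pigs on a side, 22 with a highest level of 5 CPM, and 31 to 47 with a pig left out. Different divisions numbered 37 as reported, and 16, 12, 20 and 58 at the first 4 of these settings, 20 with a highest level of 5 CPM, and 31 to 37 with a pig left out. DESeq2's Wald test called 65 genes, 2 of them members, against 0 by edgeR, and edgeR called 0 to 1 genes and 0 to 1 members with a pig left out, the 1 member without pig 10 and the 1 other gene without pig 5. Members at an unadjusted p at or under 0.05 by edgeR numbered 3 of 30 as reported and 7 of 38 in the 6 pigs whose Y chromosome counts match the label. With a pig left out they numbered 3 to 6, with 6 of 31 without pig 10. Groups did not overlap in 0 to 1 members with a pig left out, 1 without pig 8 and 1 without pig 10. The shares over all genes at these alternatives were not worked out, so these counts cannot be set against a background. Over all alternatives the adjusted p ran from 1.09e-09 to 0.72 for RF01848, from 3.24e-05 to 0.62 for ENSSSCG00000016886 and from 0.00573 to 0.998 for UBE2V1, whose exact permutation p fell to 0.0303 without pig 2 or pig 6. No result changed direction under the alternatives run. RF01848 had no value with at least 10 counts required in every pig. The cause of these changes was not tested. No paired analysis was made, because the pigs were unrelated and the study describes no pairing between the 2 groups. Depth limits the lower level only, which at under 3 counts cannot be told from 0.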
